A study of Mus musculus with 6 samples.

Results

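The genes described here are 32 mouse genes of endoplasmic reticulum (ER) stress and protein folding in the ER, measured in lungs of mice lacking Nogo-A and Nogo-B and of wild-type mice. They were taken from a named list of gene symbols. Each was read by its brightest probe, kept when 3 or more of the 6 arrays had it well above background, and all 32 were found among the 20423 genes tested. The list held 4 roles, with 4 genes of stress sensing and signalling, 16 of folding, 6 of degradation and feedback, and 6 of the PERK arm. The knockout (KO) group was 3 lungs, from animals numbered KO 1, KO 11 and KO 12, and the wild-type (WT) group was 3 lungs, from WT 11, WT 12 and WT 13. All 6 animals were naïve males aged 8 weeks, and each gave 1 array. The strain and the way the Nogo alleles were made are not given in the sources used here. The study's stated subject was the role of Nogo in asthma, and these animals are its unchallenged state. Total RNA of the whole lung was labelled with Cy3 and hybridised to 1-colour Agilent arrays of 60-base probes.

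Nogo proteins, made from the Rtn4 gene, are reticulons, membrane proteins that shape the tubules of the ER. When unfolded proteins gather in the ER lumen, 3 membrane sensors start the unfolded protein response. ATF6 is cut in the Golgi to free a transcription factor, IRE1 (Ern1) splices the Xbp1 message, and PERK (Eif2ak3) phosphorylates the initiation factor eIF2 and so favours translation of ATF4. The first pair raise the transcription of chaperones and of the degradation machinery, and ATF4 raises amino acid and stress genes such as Ddit3. Secretory lung cells, among them alveolar type 2 cells, club cells and plasma cells, carry a high folding load. The arrays measure message levels of these genes, and they measure neither Xbp1 splicing nor the cutting or phosphorylation of the sensors.

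The sequence element by which ATF6 is known to act was searched in the promoters of these genes, because members that share an element can be read side by side in the values below. RefSeq promoters on GRCm38.p6, each from 250 bases before to 50 bases after the gene's start, were matched for 28 of the 32 genes, Ero1l under its current symbol Ero1a. Atf6, Manf, Hyou1 and Derl1 were not matched. The ER stress element (ERSE), searched on both strands as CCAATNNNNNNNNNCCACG, was found in 8 of the 28 promoters and in 39 of all 32851 promoters in the table, or 0.119%. The shorter element ERSE-II, ATTGGNCCACG, was found in Herpud1 and Dnajb11, and in 12 of all promoters, or 0.0365%. The amino acid response element (CARE) TTGCATCA, to which ATF4 and its partners are known to bind, was found in Chac1 and Herpud1, and in 0.895% of all promoters. TGACGTGG, an element known for XBP1 and ATF6, was found in 0 of the 28 promoters and in 0.676% of all promoters. No matched elements overlapped in these genes. The matches describe these windows only. The stretches printed here hold the elements that these promoters share, in capitals, with 20 bases on either side, written 5′ to 3′ on the gene's own strand. An element that lies on the opposite strand is read there as its reverse complement.
Hspa5, chr2:34772005-34772063, plus strand: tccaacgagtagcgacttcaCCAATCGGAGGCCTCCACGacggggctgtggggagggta
Dnajc3, chr14:118937807-118937865, plus strand: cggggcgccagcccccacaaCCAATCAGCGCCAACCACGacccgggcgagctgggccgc
Hsp90b1, chr10:86705513-86705676, minus strand: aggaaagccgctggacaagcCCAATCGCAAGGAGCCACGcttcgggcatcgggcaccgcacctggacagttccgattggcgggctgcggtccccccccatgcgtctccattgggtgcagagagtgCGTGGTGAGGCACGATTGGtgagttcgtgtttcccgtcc
Pdia6, chr12:17266471-17266529, plus strand: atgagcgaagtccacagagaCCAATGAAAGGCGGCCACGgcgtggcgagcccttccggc
Calr, chr8:84847055-84847113, minus strand: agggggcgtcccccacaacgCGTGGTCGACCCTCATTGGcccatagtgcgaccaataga
Canx, chr11:50325780-50325838, minus strand: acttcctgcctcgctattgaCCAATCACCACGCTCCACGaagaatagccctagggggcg
Creld2, chr15:88819500-88819558, plus strand: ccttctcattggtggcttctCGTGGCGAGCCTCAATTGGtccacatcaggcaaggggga
Syvn1, chr19:6046512-6046570, plus strand: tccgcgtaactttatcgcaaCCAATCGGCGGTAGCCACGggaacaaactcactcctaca
Herpud1, chr8:94386297-94386407, plus strand: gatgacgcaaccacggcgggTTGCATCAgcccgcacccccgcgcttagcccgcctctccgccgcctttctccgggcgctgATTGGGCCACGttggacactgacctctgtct
Chac1, chr2:119351029-119351076, plus strand: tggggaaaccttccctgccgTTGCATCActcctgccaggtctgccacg

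**Figure D1:**
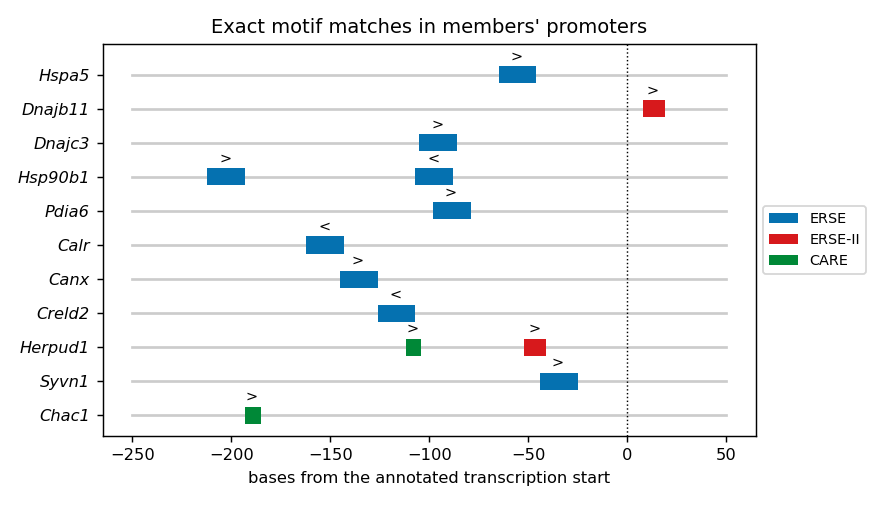
Positions of the elements found in the promoters of ER stress and chaperone genes, in bases from the gene's start (0), over the 300-base windows. Each bar is 1 match, coloured by element, and the arrow above it gives the strand. The ER stress elements of the folding genes lie before the start, except that of Dnajb11, which lies just after it.

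Hspa5, which encodes BiP, the main ER chaperone of the HSP70 family, held its element at -65 to -47 from the start. Hsp90b1, which encodes the ER member of the HSP90 family, held 1 copy on each strand, at -212 to -194 and at -107 to -89. The other single copies lay at -105 to -87 in Dnajc3, -98 to -80 in Pdia6, -162 to -144 in Calr, -145 to -127 in Canx, -126 to -108 in Creld2 and -44 to -26 in Syvn1. Of these 8 genes, 7 belong to the folding group, and Syvn1, a ubiquitin ligase, belongs to the degradation group. Among 98 other genes of the pathway with a promoter, 1 held the longer element, the degradation gene Derl3.

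The label of the knockout was checked first. The brightest Rtn4 probe was well above background in 3 of 3 KO lungs, and whether it is specific to the A and B forms was not determined here. It read 1.099, -0.71 and -1.79 in KO 1, KO 11 and KO 12, against 1.69, 1.62 and 2.36 in WT 11, WT 12 and WT 13. These are log2 signals relative to each array's 75th percentile, the scale of every value below. The array transcript AK047982, at the Rtn4 locus, was well above background in 0 of 3 KO lungs and in 3 of 3 WT lungs, at least 14.3-fold lower in KO. Between 68.9% and 78.0% of probes were well above background per array. The file headers give 2 scan days, with KO 1, KO 11 and WT 13 on day 1 and KO 12, WT 11 and WT 12 on day 2, so genotype and scan day were only partly separate. Markers of lung epithelium and endothelium, among them Sftpc, Scgb1a1, Ager and Cdh5, were measured in every lung.

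No ER stress or chaperone gene was called different between KO and WT lungs. All 32 genes were well above background on all 6 arrays and none was saturated. By limma's moderated test, 0 of 32 passed an adjusted p of 0.05 (every member's adjusted p was 0.9998), as did 0.0% of all genes, and 0 of 32 reached an unadjusted p of 0.05. Among all genes, 0.294% were higher and 0.641% lower at that unadjusted threshold. In 0 of 32 genes did the KO and WT arrays fail to overlap, against 3.98% of all genes. The difference, KO minus WT, was above 0 in 12 genes and below 0 in 20, with a median of -0.04, against 0.01 over all genes. In whole-lung RNA, fewer cells of a type and less RNA per cell cannot be told apart.

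The probes behind the best known members lay, on mouse build mm7 as the array files give it, at chr11:5476970-5477029 for Xbp1, chr2:34783421-34783480 for Hspa5, chr1:170684024-170684083 for Atf6, chr11:106506675-106506734 for Ern1, chr6:70922794-70922853 for Eif2ak3 and chr10:126796858-126797161 for Ddit3. Exon and UTR annotation of that build was not used here.

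The size of change that 3 lungs a group could leave unseen differed between genes. Single differences ran from -0.61 (Xbp1) to 0.31 (Dnajc3), and their standard errors from 0.15 to 0.44. The 95% intervals reached down to -1.62 for Xbp1 and up to 1.20 for Sdf2l1, so they hold changes beyond a halving for Xbp1 and beyond a doubling for Sdf2l1. Intervals also passed a halving for Edem1 (-1.22), Sel1l (-1.19) and Dnajb9 (-1.01), and a doubling for Dnajc3 (1.11) and Pdia4 (1.003). For P4hb, which encodes a protein disulfide isomerase, the interval was much narrower, at -0.37 to 0.37. The medians by role were -0.00 for sensing, -0.02 for folding, -0.06 for degradation and -0.09 for the PERK arm, against 0.01 over all genes.

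**Figure D2:**
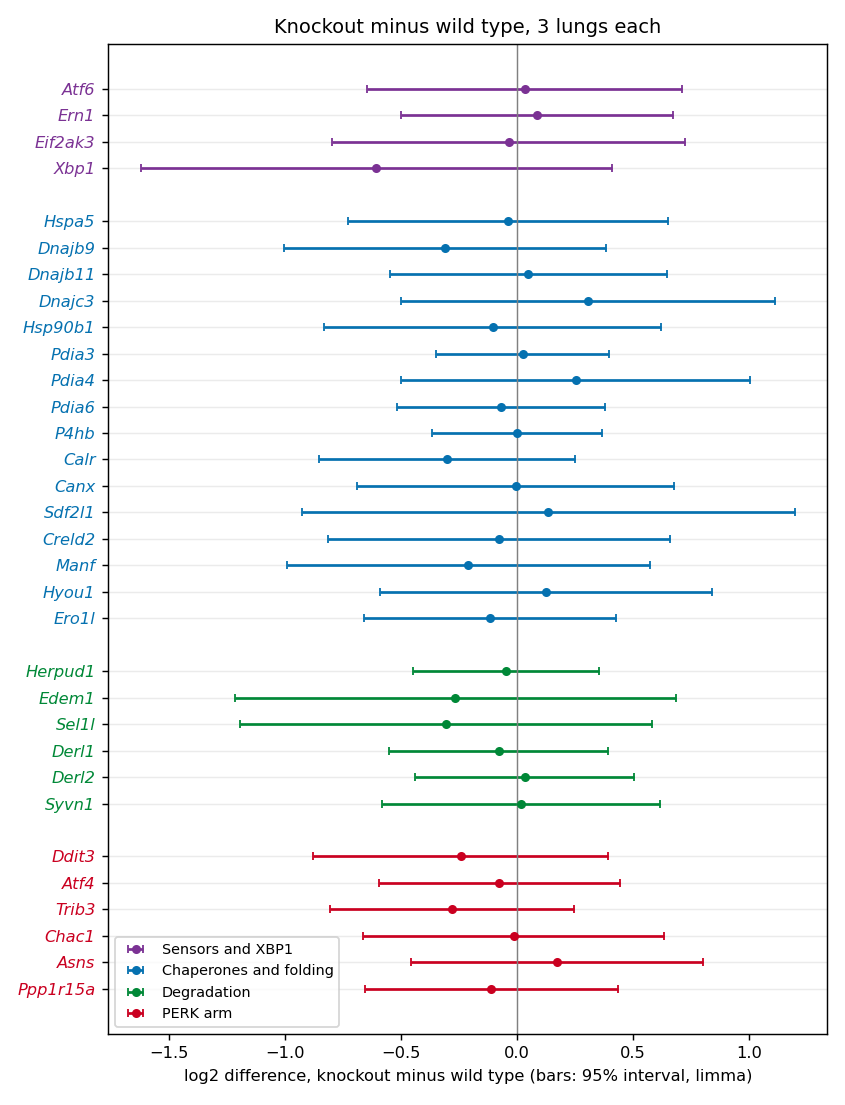
Difference of KO minus WT lungs for each of the 32 genes (log2), by role, with 95% intervals from limma (n = 3 lungs a group). Every interval crosses 0, and Xbp1 has the lowest point.

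Among the sensors, the WT group was the more spread for Atf6, Eif2ak3 and Ern1. Atf6 was 1.02, 1.003 and 1.1 in KO 1, KO 11 and KO 12, against 1.30, 1.31 and 0.42 in WT 11, WT 12 and WT 13. WT 13 was the lowest lung, and the KO lungs lay between it and the other WT lungs. The mean was 1.04 ± 0.05 in KO and 1.01 ± 0.51 in WT (SD, n = 3 each), a difference of 0.03 (SE 0.28). Eif2ak3, which encodes PERK, was 0.07, 0.63 and 0.78 in KO 1, KO 11 and KO 12, against 0.83, 0.76 and -0.01 in WT 11, WT 12 and WT 13. KO 1 and WT 13 were the low lungs, and the difference was -0.04 (SE 0.31, 95% interval -0.80 to 0.72).

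Ern1, which encodes the sensor kinase and nuclease IRE1, was -2.58, -2.73 and -3.02 in KO 1, KO 11 and KO 12, against -2.98, -3.14 and -2.47 in WT 11, WT 12 and WT 13. The lungs of scan day 1 were the higher ones in both groups. The difference was 0.09 (SE 0.24, unadjusted p = 0.733 by limma). Xbp1, the transcription factor whose message IRE1 splices, was 2.19, 3.17 and 3.38 in KO 1, KO 11 and KO 12, against 3.92, 3.75 and 2.89 in WT 11, WT 12 and WT 13. WT 11 and WT 12 were above every KO lung, but WT 13 lay below KO 11 and KO 12. The mean was 2.91 ± 0.63 in KO and 3.52 ± 0.55 in WT (SD, n = 3 each), a difference of -0.61 (SE 0.42). Its unadjusted p was 0.195 by limma, and blocked on scan day it was -0.33.

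**Figure D3:**
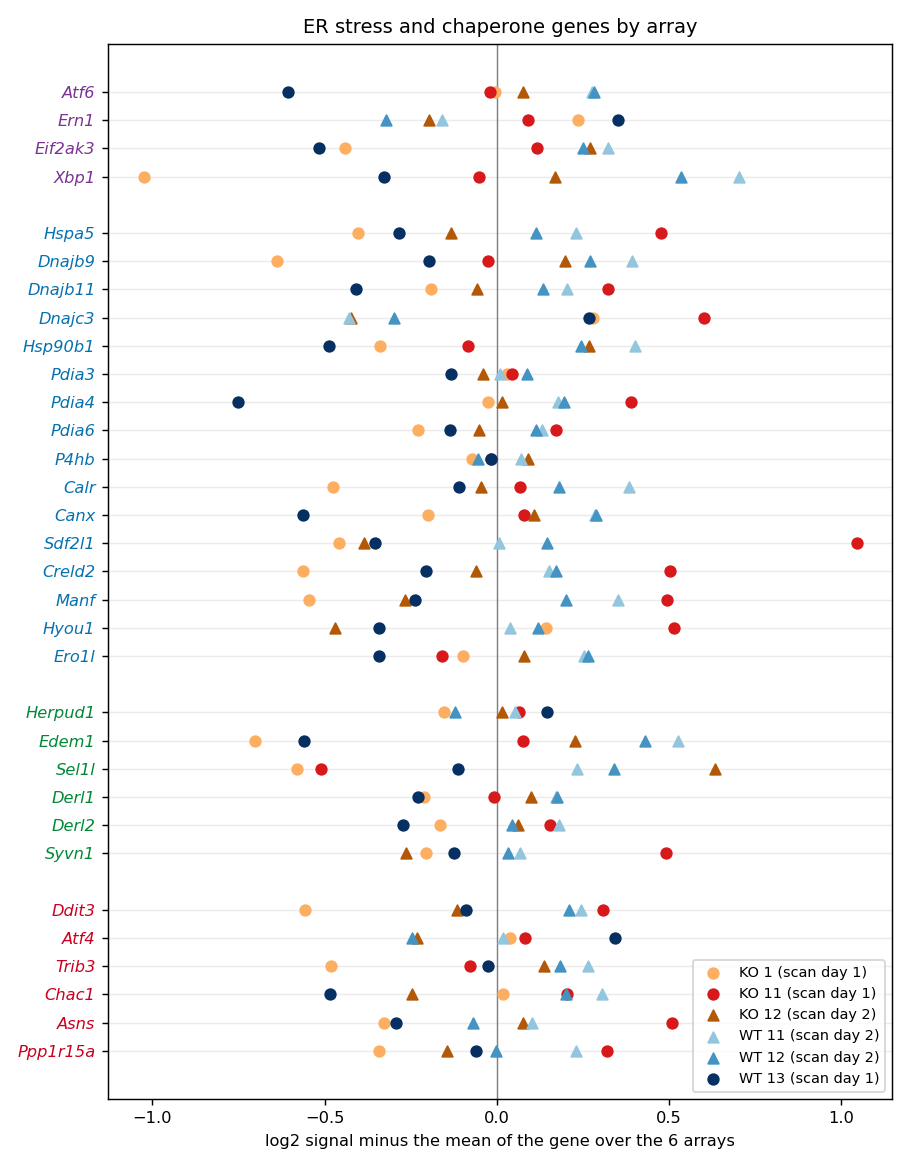
Log2 signal of each of the 32 genes in each lung, minus the gene's mean over the 6 arrays. Rows are genes by role, colours are lungs, and circles and triangles are scan days 1 and 2. KO 1 is the lowest point in 16 genes and WT 13 in 11. KO 11 is the highest in 13 and WT 11 in 9.

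The folding group held 16 genes, of which 7 had a difference above 0 and 9 below. Hspa5 was 4.81, 5.69 and 5.08 in KO 1, KO 11 and KO 12, against 5.45, 5.33 and 4.93 in WT 11, WT 12 and WT 13. KO lungs held both the lowest and the highest value. The mean was 5.20 ± 0.45 in KO and 5.24 ± 0.27 in WT (SD, n = 3 each), a difference of -0.04 (SE 0.28, 95% interval -0.73 to 0.65). Dnajb9, an ER DnaJ co-chaperone of BiP, was 0.92, 1.53 and 1.76 in KO 1, KO 11 and KO 12, against 1.95, 1.83 and 1.36 in WT 11, WT 12 and WT 13. KO 1 was the lowest lung, and the groups overlapped, with a difference of -0.31 (SE 0.29). Calr, which encodes the lectin chaperone calreticulin, was 3.31, 3.85 and 3.74 in KO 1, KO 11 and KO 12, against 4.16, 3.96 and 3.67 in WT 11, WT 12 and WT 13. WT 13 alone among the WT lungs fell within the KO range, and the difference was -0.30 (SE 0.23, unadjusted p = 0.228 by limma). The other Calr probe gave a difference of 0.37, so the probes differed in sign.

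The members that follow were chosen after their values were seen, for how widely or narrowly they spread. Sdf2l1, part of an ER chaperone complex with BiP, had the widest KO spread, with 0.36, 1.86 and 0.43 in KO 1, KO 11 and KO 12, against 0.82, 0.96 and 0.47 in WT 11, WT 12 and WT 13. KO 11 stood above every other lung. Manf, a secreted ER-resident factor, was 2.69, 3.73 and 2.97 in KO 1, KO 11 and KO 12, against 3.59, 3.44 and 2.999 in WT 11, WT 12 and WT 13. Creld2, an ER protein induced by stress, was 3.56, 4.63 and 4.07 in KO 1, KO 11 and KO 12, against 4.28, 4.30 and 3.92 in WT 11, WT 12 and WT 13. In both, KO 1 was the lowest lung and KO 11 the highest. P4hb was nearly flat, with 4.20, 4.26 and 4.37 in KO 1, KO 11 and KO 12, against 4.35, 4.22 and 4.26 in WT 11, WT 12 and WT 13. Pdia3, a disulfide isomerase that acts with the lectin chaperones, was also nearly flat, at 3.61, 3.62 and 3.54 in KO 1, KO 11 and KO 12, against 3.59, 3.66 and 3.44 in WT 11, WT 12 and WT 13. The other folding genes were Dnajb11, Dnajc3, Hsp90b1, Pdia4, Pdia6, Canx, Hyou1 and Ero1l, with differences from -0.12 (Ero1l) to 0.31 (Dnajc3).

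In the degradation group, 2 of 6 genes had a difference above 0. Edem1, which hands misfolded glycoproteins to degradation, was 1.51, 2.29 and 2.44 in KO 1, KO 11 and KO 12, against 2.74, 2.65 and 1.66 in WT 11, WT 12 and WT 13. KO 1 and WT 13 were the low lungs, and the difference was -0.27 (SE 0.39, 95% interval -1.22 to 0.68). Sel1l, the adaptor of the ubiquitin ligase Syvn1, was -0.03, 0.04 and 1.18 in KO 1, KO 11 and KO 12, against 0.78, 0.89 and 0.43 in WT 11, WT 12 and WT 13. KO 12 was the highest lung and the other KO lungs the lowest, and the difference was -0.31 (SE 0.36). Without KO 12 the Sel1l difference was -0.70 and passed an unadjusted p of 0.05 by limma. No other member did so in any fit that left out 1 lung. In the fit without KO 12, 864 of all 20423 genes passed the same threshold. The other Sel1l probes gave differences of -0.15 and 0.82 over all 6 lungs. Herpud1, whose promoter carried ERSE-II and CARE, helps assemble the degradation complex. Its values were 4.46, 4.68 and 4.63 in KO 1, KO 11 and KO 12, against 4.67, 4.49 and 4.76 in WT 11, WT 12 and WT 13. Its groups overlapped almost fully, with a difference of -0.05 (SE 0.16). Derl1, Derl2 and Syvn1 differed by -0.08, 0.03 and 0.02.

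In the PERK arm, 1 of 6 genes had a difference above 0. Ddit3, which encodes the transcription factor CHOP, was -0.10, 0.76 and 0.34 in KO 1, KO 11 and KO 12, against 0.70, 0.67 and 0.36 in WT 11, WT 12 and WT 13. KO lungs again held both extremes. The mean was 0.33 ± 0.43 in KO and 0.58 ± 0.18 in WT (SD, n = 3 each), a difference of -0.24 (SE 0.26, unadjusted p = 0.389 by limma). Trib3, a pseudokinase induced through ATF4 and CHOP, was -0.36, 0.04 and 0.26 in KO 1, KO 11 and KO 12, against 0.39, 0.31 and 0.10 in WT 11, WT 12 and WT 13. KO 1 was the lowest lung and KO 12 lay among the WT values, and the difference was -0.28 (SE 0.22). Atf4 itself differed by -0.08, the glutathione-degrading enzyme gene Chac1 by -0.02, and the phosphatase subunit gene Ppp1r15a by -0.11. The gene above 0 was Asns, which encodes asparagine synthetase, at 0.17 (SE 0.26).

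Within each scan day the genotype difference ran in opposite directions for most members. On day 1, with KO 1 and KO 11 against WT 13, 22 of 32 genes were higher in KO, with a median of 0.19, against 9250 of 20423 and a median of -0.04 for all genes. On day 2, with KO 12 against WT 11 and WT 12, 5 of 32 were higher in KO, with a median of -0.18, against 12284 of 20423 and a median of 0.08 for all genes. The direction differed between the days for 25 of 32 members and for 13172 of 20423 genes. Each day holds 1 lone lung of one genotype, WT 13 on day 1 and KO 12 on day 2, assumed to vary like the others. The difference between the days was not tested.

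Within day 2, 5 members reached an unadjusted p of 0.05 by limma, all lower in KO 12, where 19.1% of all genes passed the same threshold. That fit sets 1 lung against a pair whose own spread, on the same slide and moderated across genes, sets the error, so it compares these lungs, not the genotypes. They were Hyou1 (-0.55), Manf (-0.54), Chac1 (-0.50), Sdf2l1 (-0.46) and Xbp1 (-0.45). Hyou1 encodes a large ER chaperone that acts on BiP. The fit within day 1 also sets 1 lung against a pair, and there the KO minus WT differences of the members ran from -0.43 to 0.93. With scan day as a block over all 6 lungs the median of the members was 0.01, and the medians by role were 0.05 for sensing, 0.03 for folding, -0.01 for degradation and -0.14 for the PERK arm.

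**Figure D4:**
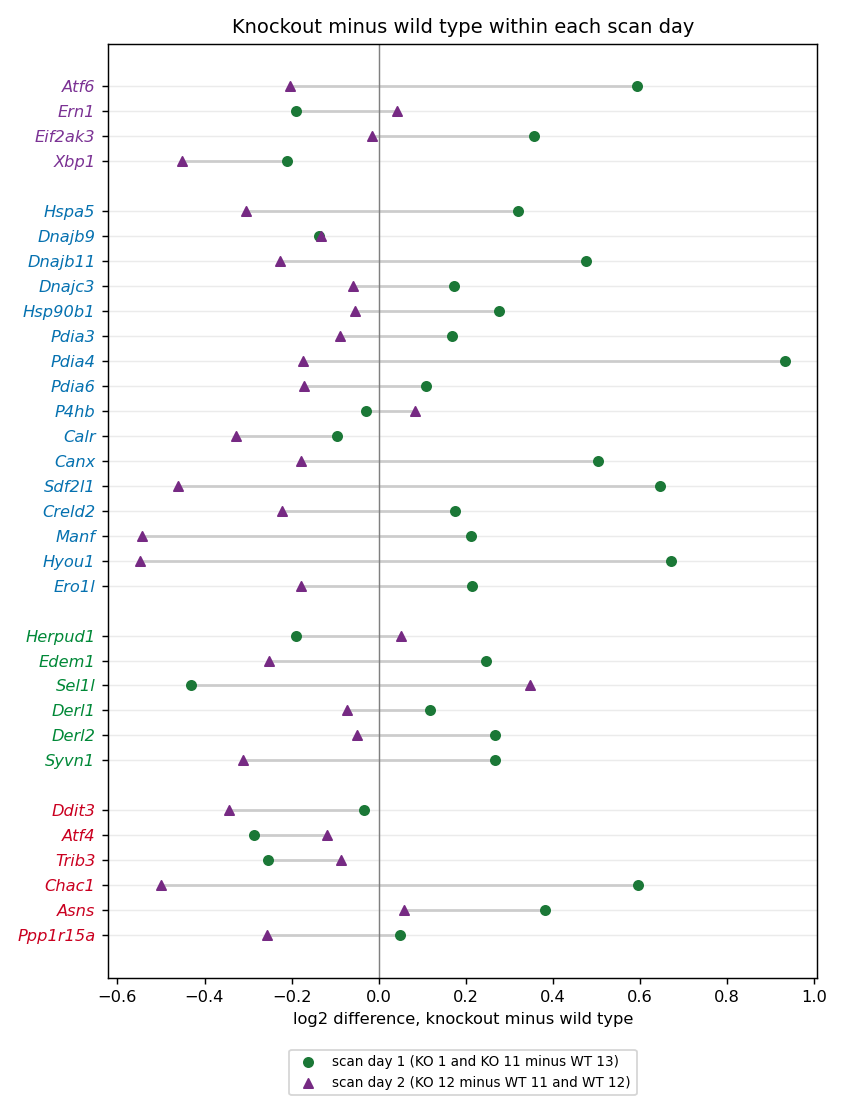
KO minus WT difference (log2) of each of the 32 genes within scan day 1 (KO 1 and KO 11 against WT 13) and within scan day 2 (KO 12 against WT 11 and WT 12). Most genes lie above 0 on day 1 and below 0 on day 2.

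The scan days themselves were compared with genotype in the model. The 3 lungs of day 2 shared 1 slide, which held no lung of day 1, so scan day and slide cannot be told apart here. By limma, 1 of 32 members passed an adjusted p of 0.05, 0 higher and 1 lower on day 2, where 2.26% of all genes were higher and 8.96% lower. That gene was Dnajc3, an inhibitor of PERK and co-chaperone of BiP, at 2.20, 2.52 and 1.496 in KO 1, KO 11 and KO 12, against 1.49, 1.62 and 2.19 in WT 11, WT 12 and WT 13. All 3 lungs of day 1 were above the 3 lungs of day 2, and the difference, day 2 minus day 1, was -0.75 (SE 0.16, adjusted p = 0.0485 by limma). The call was lost in each fit that left out 1 lung, and no member was called lower on day 2 with median scaling, without the filter on dim probes or with the mean of probes. Of all calls on scan day, 20.2% were higher on day 2, against 58.9% with median scaling and 42.1% with quantile normalization.

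The members also differed within both groups, which is given as a description, since it was noticed in these values. The SD was larger in KO than in WT in 17 of 32 members, or 53.1%, against 56.7% of all genes. Relative to each gene's mean over the 6 lungs, the median of the members was -0.22, 0.10 and -0.01 in KO 1, KO 11 and KO 12. In WT 11, WT 12 and WT 13 it was 0.22, 0.17 and -0.23. KO 11 was above KO 1 in 29 of 32 genes, with a median difference of 0.40, where 46.5% of all genes were above and the median was -0.03. These lungs shared genotype and scan day but not slide. The exceptions were Atf6 (-0.02), Ern1 (-0.14) and Ero1l (-0.06). The differences were widest for Sdf2l1 (1.503), Creld2 (1.07), Manf (1.04), Xbp1 (0.97), Hspa5 (0.88), Ddit3 (0.87) and Asns (0.84). KO 11 was the highest of the 6 lungs in 13 genes, or 40.6%, and KO 1 the lowest in 16, or 50%. Among all genes these shares were 13.1% and 17.9%. WT 11 was the highest in 9 genes and WT 13 the lowest in 11, or 28.1% and 34.4%, against 13.2% and 18.8% of all genes. Those WT lungs differed in scan day. Under the other scalings, KO 11 was above KO 1 in 27 to 31 of 32 genes, where 51.9% to 59.3% of all genes were above. The median of the members lay 0.33 to 0.44 above that of all genes under these scalings. Of 126 other measured genes of the pathway, 88 were above in the reported scaling, with a median of 0.11.

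**Figure D5:**
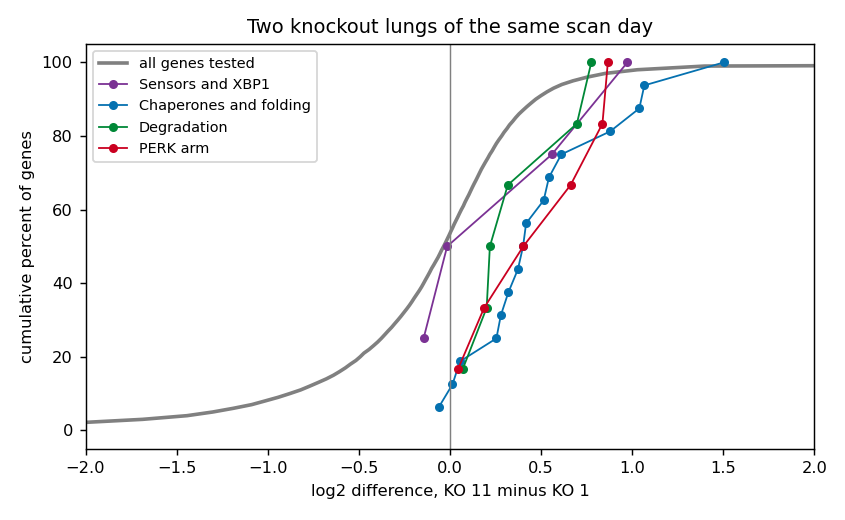
Cumulative percent of genes against the difference of KO 11 minus KO 1 (log2), for all genes tested (grey line) and for each role (1 point a gene). The points lie right of 0 in 29 of 32 genes, where the grey line crosses 0 near its middle.

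Members with and without an ER stress element (ERSE or ERSE-II) are set side by side, and the difference between them was not tested. Of the 10 genes with either ER stress element, 10 were above KO 1 in KO 11, 8 were above both other KO lungs there, and in 6 KO 11 was the highest of all lungs. Of the 18 others with a promoter, these counts were 16, 9 and 5. Over all genes the shares were 46.5%, 24.1% and 13.1%. The genes with an element were also the brighter, with a median level in KO 11 of 4.65 against 1.69. The KO minus WT medians were -0.04 with an element and -0.06 without. Markers of other cells were set beside this. Neutrophil markers were lower in KO over all 6 lungs in 8 of 8 genes. Their median levels were 0.32, 1.51 and -0.55 in KO 1, KO 11 and KO 12. In WT 11, WT 12 and WT 13 they were 2.25, 2.34 and 0.50. Within day 1, 5 of 8 were higher in KO, with a median of 0.33, and within day 2, 0 of 8. The groups failed to overlap in 1 of 8. By limma, 2 of 8 reached an unadjusted p of 0.05, where 0.641% of all genes were lower, and 0 an adjusted p of 0.05. Of the 8, 6 were higher in KO 11 than in KO 1. Plasma cell markers, of cells rich in ER, were higher in KO 11 than in KO 1 in 2 of 8 genes, with median levels of -0.61, -0.53 and -0.63 in KO 1, KO 11 and KO 12, against -1.04, -0.86 and -0.65 in WT 11, WT 12 and WT 13. All 5 measured goblet cell markers were lower in KO, with a median difference of -0.77, and all 5 were higher in KO 11 than in KO 1, with a median difference of 2.62. Club cell markers were higher in KO 11 than in KO 1 in 4 of 4 genes, with a median of 0.30, and alveolar type 2 markers in 4 of 8, with a median of -0.01. The part of these cells in the spread of the ER genes was not tested.

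The array carried 57 probes for the 32 genes. Of these, 0 reached an unadjusted p of 0.05 by limma, and the differences ran from -0.61 to 0.82. Of the 15 genes with several probes, 4 had the same sign in all, Edem1 and Derl1 among them, both below 0. The sign of a single small difference therefore often depended on the probe taken.

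The rest of the pathway was described from a list of 131 further genes, of which 126 were measured. By limma, 0 of 126 reached an unadjusted p of 0.05, with 66 above 0 and 60 below and a median of 0.01. The groups did not overlap in 6 of them, a share near the 3.98% of all genes. The amino acid transporter gene Slc7a5, a target of ATF4, was -2.21, -2.27 and -1.77 in KO 1, KO 11 and KO 12, against -2.53, -2.60 and -2.48 in WT 11, WT 12 and WT 13, a difference of 0.45 (SE 0.19, unadjusted p = 0.0568). Every KO lung was above every WT lung. Dad1, a subunit of the oligosaccharyltransferase, was 2.99, 3.09 and 3.13 in KO 1, KO 11 and KO 12, against 2.80, 2.58 and 2.92 in WT 11, WT 12 and WT 13, a difference of 0.31, again without overlap. Tmbim6, Rpn2, Man1a2 and Ppp1r15b were the others. The smallest p of the other roles belonged to Ern2 (-0.47), Creb3l3 (0.92) and Tmbim6 (0.16) in sensing, Sec62 (-0.30) and Cdnf (0.43) in folding, Ube2j2 (0.31), Edem2 (0.24) and Man1a2 (-0.17) in degradation, and Ddit4 (0.57) and Nupr1 (0.32) in the PERK arm. None of these passed the test.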

How the data were processed

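The 6 arrays (3 KO, 3 WT) were 1-colour Agilent scans of Cy3-labelled total RNA. Signals were extracted with Agilent Feature Extraction, version 9.1 per the submitters' processing notes and 9.5.1.1 per the file headers, and the processed signal intensity, deposited by the authors, had its background handled by that program. The authors' deposited value table, on a log2 scale whose centring is not stated (column medians near 8.09), served as an alternative. Spots of a probe were averaged, 30 probes whose spots were all flagged as outliers on any array were dropped and 41144 used. Values were log2 intensity minus each array's 75th percentile, with no pseudocount. For each gene name the brightest probe was taken, if well above background on at least 3 of 6 arrays, leaving 20423 genes. limma 3.58.1 in R 4.3.3 (lmFit, eBayes, two-sided, Benjamini-Hochberg over all genes) gave tests. The script was tested on simulated data. The design text calls the lungs separate biological replicates, and p-values measure the spread between these 6 lungs. The number of arrays limits the precision. Members and pathway lists were chosen with earlier results of these data known. Members named array by array were, by rule, the 3 sensors, Hspa5, Ddit3, Xbp1 and the 2 smallest p of each role. Sdf2l1, Manf, Creld2, P4hb, Pdia3, Herpud1 and Dnajc3 were added after their values were seen. Of the pathway list the 3 smallest p of each role were named. The 2 groups were compared in 18 alternative settings, described in the closing section. Promoters came from RefSeq on GRCm38.p6, while probe positions are on mm7, per the file headers.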

Additional observations from a re-analysis of the deposited data

How the results depend on the processing

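Under the 18 alternative settings, 0 of 32 members passed an adjusted p of 0.05. Counts of genes past adjusted p (0 in the reported fit) were 1 with normexp, 2 with median scaling, 1 with the authors' values and 2 with slide as a random block, and 0 to 1 when 1 lung was left out. Counts at an unadjusted p under 0.05 (191 reported) were 425 blocked on scan day, 453 and 3896 within scan days 1 and 2, 731 with slide as a random block and 93 (without WT 11) to 1486 (without WT 13) when 1 lung was left out. Of the members, 5 reached it within day 2 and 0 to 1 without 1 lung (Sel1l, without KO 12). Of the other pathway genes, 1 reached it blocked on scan day, 2 and 10 within days 1 and 2, 3 with slide as a random block and 0 to 4 without 1 lung (4 without WT 13). The folding and degradation medians were 0.21 and 0.18 within day 1. The replicate block, on numbers 11 and 12 alone, gave 628 genes and 0 members at that threshold. Deviations from the group means correlated at -0.25 between KO 11 and WT 11 and at 0.42 between KO 12 and WT 12. KO 12 and WT 12 also shared scan day and slide, and KO 11 and WT 11 shared neither. These values therefore cannot show whether same-numbered lungs were paired.

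Small differences changed sign. Atf6 was -0.0098 with median scaling, -0.057 with the mean of probes, -0.20 within day 2, -0.25 with the replicate block and -0.26 to 0.18 without 1 lung. Ern1 was -0.00083 with the authors' values, -0.074 blocked on scan day, -0.19 within day 1 and -0.053 to 0.28 without 1 lung. Eif2ak3 was 0.013 with normexp, 0.0017 with the authors' values, 0.17 blocked on scan day, 0.36 within day 1, 0.023 with slide as a random block and -0.30 to 0.18 without 1 lung. Hspa5 was 0.0085 blocked on scan day, 0.32 within day 1, 0.00076 with the replicate block and -0.29 to 0.15 without 1 lung. Calr was 0.034 with the mean of probes. Edem1 was 0.25 within day 1 and -0.61 to 0.018 without 1 lung. Sel1l was 0.12 with the mean of probes and 0.35 within day 2. Xbp1 passed an unadjusted p of 0.05 within day 2, at -0.45, and its sign held in every setting. Genes called for scan day (2292 reported) numbered 3719 with median scaling, 3444 without genotype and 639 (without WT 13) to 2523 (without KO 11). Members called for scan day (1 reported) numbered 3 with normexp, 2 with median scaling (both higher on day 2, so without Dnajc3), 4 with the authors' values, 0 without the filter on dim probes, 0 with the mean of probes, 3 without genotype, 4 without KO 11 and 0 without each other lung. The cause of these changes was not tested.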
